A study of Mus musculus with 6 samples.

Results

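The Slc25 genes encode the mitochondrial carrier family, the nuclear-encoded membrane proteins that move metabolites, nucleotides, coenzymes and ions between the mitochondrial matrix and the rest of the cell. Members were taken as every protein-coding gene whose symbol is Slc25a followed by a number, which gave 47 genes of the 54532 listed in the deposited table and of its 22046 protein-coding genes. They lie on 19 chromosomes. The libraries came from poly-A RNA of distal colon of mice that drank 3% DSS (dextran sulfate sodium of 36 to 50 kDa, which injures the colon lining) for 7 days. The 3 libraries labelled KO are from animals of genotype Itgbl1 -/-, labelled as lacking an integrin beta-like gene, and the 3 labelled WT from wild-type animals given the same DSS, so both groups have colitis and no untreated colon was analysed here. The labels used here give neither the age or sex of the animals nor how the allele was made, and replicates carry only a number. Nothing says that each came from a separate animal, and p-values cover the spread among libraries, which may be technical.

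In each turn of a mitochondrial carrier, a substrate on one side of the inner membrane is usually swapped for another on the opposite side. ADP enters for ATP, phosphate is brought in for ATP synthesis, citrate and malate leave or enter for the cytosol's synthetic and redox pathways, and acylcarnitines enter for fatty acid oxidation. In the colon, the absorptive lining cells are known for burning short-chain fatty acids in mitochondria, and family members are known to differ in the tissues where they are abundant.

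Total counts ran from 13326970 to 17465473 reads in the KO libraries and from 16800399 to 18321389 reads in the WT libraries. The targeted gene did not separate the labels: Itgbl1 had 12, 4 and 10 reads in KO 1, KO 2 and KO 3, against 19, 6 and 5 reads in WT 1, WT 2 and WT 3, with a fitted KO over WT ratio of 0.878 (95% interval 0.250 to 3.08). The groups are therefore named by their labels throughout. The defining markers of colon lining cells were low in the KO libraries: 6 epithelial markers, all with negative log2 ratios, summed to 818, 5172 and 39.8 CPM (read counts scaled to a common library size, with TMM factors) in KO 1, KO 2 and KO 3, against 10310 to 17600 CPM in the WT libraries, and none of them was at 0. Goblet cell markers summed to 449.7, 12200 and 19.97 CPM in KO 1, KO 2 and KO 3, against 12520 to 13270 CPM in WT. The KO libraries also differed among themselves, with 5 pancreatic acinar markers summing to 63.6, 1015 and 2.18 CPM in the same order, against 0.354 to 1.66 CPM in WT, and 7 erythroid markers to 164, 589.5 and 2654 CPM, against 51.3 to 163 CPM in WT. In bulk tissue, fewer cells of a type and less RNA per cell cannot be told apart, and the part of these markers in the results on carriers was not tested.

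Of the 10 pairs of relatives compared below, the widest shift was between the ADP/ATP carriers Slc25a4 and Slc25a5, which are close copies. Their coding sequences in GENCODE M21 are each 897 bases long and identical at 695 of them (77.5%), with a longest identical run of 20 bases. The stretch below, coding bases 682 to 741, was taken around the bases that code for RRRMMM, an amino acid signature of ADP/ATP carriers. It was not picked by similarity. Capitals mark the 9 of 60 bases that differ.
Slc25a4: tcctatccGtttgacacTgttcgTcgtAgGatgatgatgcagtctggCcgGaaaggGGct
Slc25a5: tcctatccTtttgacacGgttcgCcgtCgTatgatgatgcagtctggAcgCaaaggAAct

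The 250 bases before the start of the 3 members with the lowest fitted KO over WT ratios are shown next, from RefSeq on GRCm38.p6, as the promoter windows of the members that differed most. Capitals mark a GC box (GGGCGG) or a CCAAT box (CCAAT) on either strand. The windows are chr4:141623835-141624084 on the minus strand for Slc25a34, chr11:120491587-120491836 on the plus strand for Slc25a10 and chrX:36795347-36795596 on the plus strand for Slc25a5.
Slc25a34: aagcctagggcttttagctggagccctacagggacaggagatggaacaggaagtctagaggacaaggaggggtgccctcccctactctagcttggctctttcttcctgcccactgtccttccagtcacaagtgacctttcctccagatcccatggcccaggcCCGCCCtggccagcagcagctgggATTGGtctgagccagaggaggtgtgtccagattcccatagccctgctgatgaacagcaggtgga
Slc25a10: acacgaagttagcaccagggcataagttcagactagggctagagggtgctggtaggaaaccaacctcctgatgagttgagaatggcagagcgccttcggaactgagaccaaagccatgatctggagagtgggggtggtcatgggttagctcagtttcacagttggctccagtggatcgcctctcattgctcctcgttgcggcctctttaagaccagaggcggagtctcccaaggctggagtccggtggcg
Slc25a5: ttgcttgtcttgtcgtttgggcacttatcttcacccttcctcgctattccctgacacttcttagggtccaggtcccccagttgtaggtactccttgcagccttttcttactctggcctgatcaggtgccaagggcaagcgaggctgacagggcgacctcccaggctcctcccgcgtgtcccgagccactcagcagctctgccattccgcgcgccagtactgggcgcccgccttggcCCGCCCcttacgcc

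Slc25a10 held neither motif in this window, Slc25a5 held a GC box, and Slc25a34 held a GC box and a CCAAT box. RefSeq lists a promoter for 36 members. On both strands, GGGCGG was found in 25 of the 36, where 35.4% of all listed genes have it, and CCAAT in 18 of the 36, where 37.5% of all listed genes have it. Unlike the members, the 27025 listed genes were not limited to protein-coding ones, and the part of gene type was not tested. Base composition moved with the motif shares: the median GC content was 57.4% for member promoters and 52.4% for all promoters, and its part in the motif shares was not tested. These 2 motifs were searched after 3 others had given no match among members: TCAAGGTCA for the estrogen-related receptors (0.422% of all genes), the NRF1 palindrome (0.877%) and the direct repeat bound by PPAR receptors (0.0407%).

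Added over all 47 genes and divided by gene length, Slc25 transcripts were lower in every KO library than in every WT library. The sum was 569, 871 and 632 CPM per kb in KO 1, KO 2 and KO 3, against 1127, 1524 and 1237 CPM per kb in WT 1, WT 2 and WT 3. The KO mean of 690 ± 159 CPM per kb was 0.533 of the WT mean of 1296 ± 205 CPM per kb (SD, n = 3 each). Most of the gap lay in Slc25a5, which alone made up 18.6%, 23.3% and 18.4% of the family's level in the KO libraries and 36.95%, 48.7% and 43.5% in the WT libraries. KO 2 had the highest family sum of the KO libraries, as it had for the epithelial markers.

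**Figure D1:**
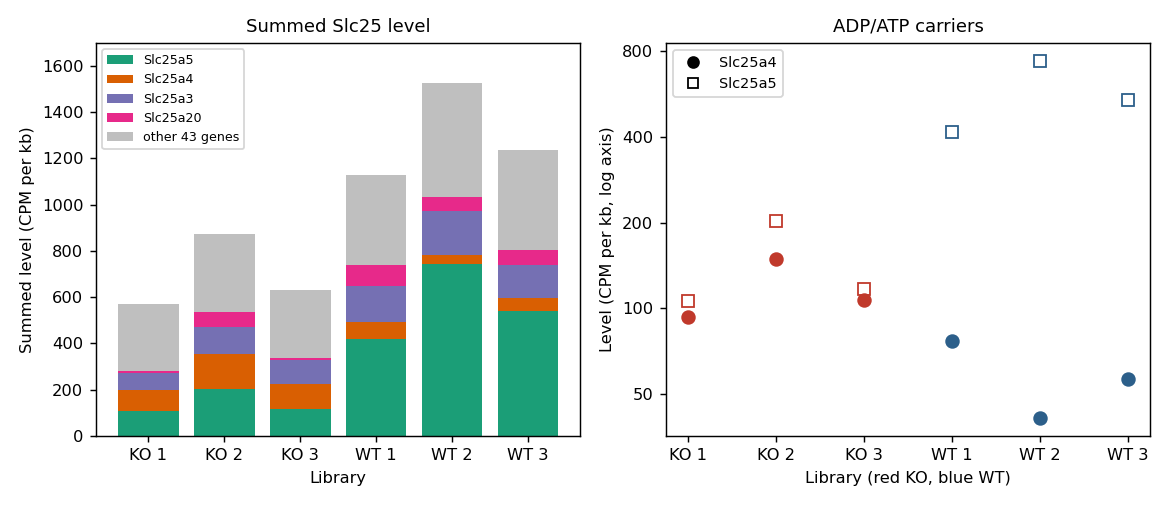
Left, the summed level of the 47 Slc25 genes in each library (CPM per kb of gene length), with the shares of 4 abundant members in colour. Right, Slc25a4 (filled circles) and Slc25a5 (open squares) in each library on a log axis. The 3 KO sums, 569 to 871 CPM per kb, all lie below the 3 WT sums, 1127 to 1524 CPM per kb, and the gap between the 2 ADP/ATP carriers is narrow in the KO libraries and wide in the WT libraries.

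Behind the sum, members differed in both directions. Of the 47 genes, 40 passed the filter on low counts and were tested among 16861 genes with edgeR's quasi-likelihood test. None of the 40 passed an adjusted p of 0.05, and neither did any other gene (0.0% of all tested), the smallest adjusted p being 0.0940 both for the members and for all genes. At an unadjusted p under 0.05 there were 12 of the 40, beside 24.1% of all genes tested. The 8 lower in KO were Slc25a1, a5, a10, a11, a13, a24, a34 and a35 (12.3% of all genes were lower at this level), and the 4 higher in KO were Slc25a4, a27, a29 and a47 (11.8% of all genes). With upper-quartile scaling the split was 7 lower (1691 of the 16861 genes) and 7 higher (15.9% of all genes). DESeq2, which tests with its own filter, called 6 members at an adjusted p under 0.05, all lower in KO (6.45% of all genes were called lower): Slc25a5, a10, a13, a24, a34 and a35. Limma-voom called 0 (0.0% of all genes), with 11 members at an unadjusted p under 0.05 (24.3% of all genes), and limma-voom with sample quality weights called 4, all lower in KO (6.04% of all genes): Slc25a5, a10, a24 and a34. Without KO 2, edgeR called 6 members lower (7.75% of all genes), with Slc25a20 in place of Slc25a35.

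The CPM of the 3 KO libraries lay wholly outside that of the 3 WT libraries for 17 members (32.3% of all genes tested). There were 12 wholly lower members (17.3% of all genes), the 8 above with Slc25a3, a36, a40 and a44, and 5 wholly higher members (15.0% of all genes), Slc25a4, a27, a29, a33 and a53. The log2 ratios of the 40 ran from -2.49 for Slc25a34 to 1.51 for Slc25a47, 21 of them positive (53.1% of all genes) and 19 negative (46.9%). Their median was 0.03 and the median of all genes was 0.06, and the median absolute log2 ratio was 0.58 for members and 0.57 for all genes. Among the 12 wholly lower members, KO 2 was the highest KO library for 9 (75.0%; 67.1% of the 2918 wholly lower genes) and KO 3 the lowest for 8 (66.7%; 71.0%).

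**Figure D2:**
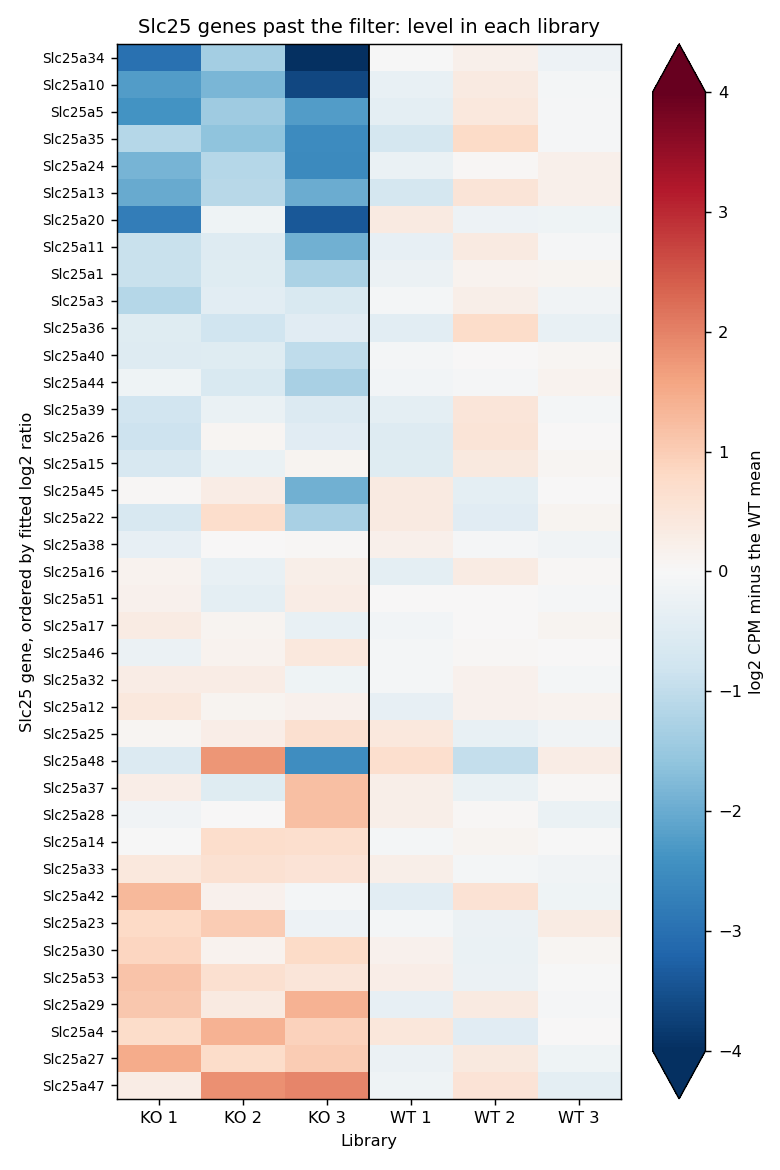
Each row is a tested Slc25 gene named here, each column a library, and colour gives log2 CPM (prior count 2) minus the mean of the WT libraries, blue for lower and red for higher. Rows run from the lowest fitted KO over WT log2 ratio, -2.49 for Slc25a34, to the highest, 1.51 for Slc25a47, and KO 2 is paler than KO 1 and KO 3 for Slc25a20 and Slc25a34.

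**Figure D3:**
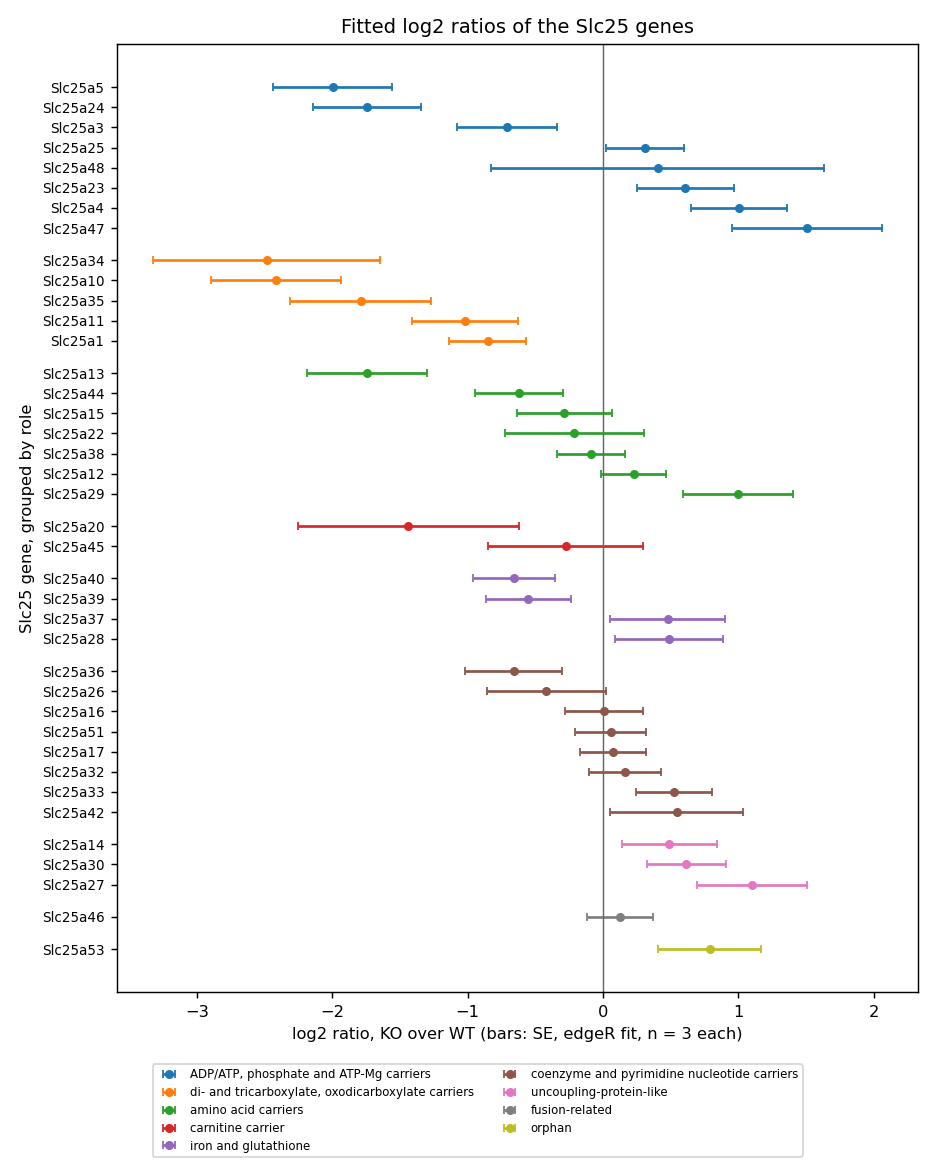
Fitted KO over WT log2 ratio of each tested member named here with its SE (edgeR, n = 3 libraries each), grouped by what the carriers transport. All 5 di- and tricarboxylate carriers lie left of 0, and the 3 uncoupling-protein-like members lie right of 0.

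The carriers of ADP, ATP and phosphate hold the most abundant members, and the 2 main ADP/ATP carriers differed in opposite directions. Slc25a5 (ENSMUSG00000016319, chrX:36795651-36798807, plus strand, GRCm38) encodes the ADP/ATP carrier found in most tissues and linked to proliferating cells. It had 174, 334 and 192 CPM in KO 1, KO 2 and KO 3, against 685, 1223 and 885 CPM in WT 1, WT 2 and WT 3. The highest KO library was below the lowest WT library, and the fitted log2 ratio was -1.997 ± 0.44 (SE; edgeR adjusted p = 0.0976). Across the alternatives of processing the log2 ratio stayed between -2.39 and -1.77, and the adjusted p ran from 0.000222 to 0.299.

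Slc25a4 (ENSMUSG00000031633, chr8:46206797-46211284, minus strand) encodes the ADP/ATP carrier best known from heart and skeletal muscle. It had 218, 350 and 252 CPM in the KO libraries, against 180, 96.8 and 133 CPM in the WT libraries. All KO values were above all WT values, with a log2 ratio of 1.00 ± 0.35 (edgeR adjusted p = 0.157). Slc25a5 stood at 106, 203 and 116 CPM per kb and Slc25a4 at 92.8, 149 and 107 CPM per kb in the KO libraries. These carriers were nearly level in KO 1 and KO 3 and further apart in KO 2, with a Slc25a4 to Slc25a5 ratio of 0.733. In the WT libraries Slc25a5 stood at 416, 743 and 538 CPM per kb and Slc25a4 at 76.6, 41.1 and 56.3 CPM per kb. The Slc25a4 share of the family was 16.3%, 17.1% and 16.95% in KO and 6.80%, 2.70% and 4.55% in WT. Muscle markers overlapped between the groups: 6 smooth muscle markers summed to 1523 to 5248 CPM in KO and 3056 to 4516 CPM in WT, and 5 skeletal muscle markers to 4.50 to 97.1 CPM in KO and 7.08 to 18.6 CPM in WT. The skeletal sum was mostly 1 gene in 1 library, Acta1 with 89.05 CPM in KO 2, and the other 4 markers stood at 0.0 to 5.72 CPM in KO and 0.0 to 6.14 CPM in WT.

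Slc25a31, the ADP/ATP carrier of the testis, had 4, 6 and 0 reads in KO and 12, 5 and 19 reads in WT and was not tested. Slc25a3, the phosphate carrier, had 402, 659 and 584 CPM in KO, compared with 849, 1042 and 802 CPM in WT. The groups did not overlap, and the log2 ratio of -0.71 ± 0.37 did not pass the threshold (edgeR adjusted p = 0.288).

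The 3 tested ATP-Mg/phosphate carriers, which set the matrix pool of adenine nucleotides in response to calcium, went separate ways. Slc25a24 (ENSMUSG00000040322, chr3:109123149-109168457) had 60.8, 99.1 and 37.4 CPM in KO, against 182, 228 and 252 CPM in the WT libraries, wholly lower, with a log2 ratio of -1.75 ± 0.40 (edgeR adjusted p = 0.0983). Slc25a23 had 49.2, 57.6 and 24.8 CPM in KO and 26.8, 23.9 and 35.7 CPM in WT, overlapping through KO 3 (log2 ratio 0.61 ± 0.36). Slc25a25 had 41.4, 47.01 and 61.9 CPM in KO and 53.2, 32.4 and 35.6 CPM in WT, also overlapping (log2 ratio 0.31 ± 0.29). Slc25a41 and Slc25a54, relatives of these carriers, had 0 reads in all 6 libraries. On chromosome 3, Slc25a54 lies 6461 bases before Slc25a24 on the same strand.

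Slc25a47, a carrier known from the liver and placed with this group here, was at 3.26, 9.49 and 10.4 CPM in KO, compared with 2.32, 3.86 and 1.95 CPM in WT. KO 1 lay among the WT values, and the log2 ratio was 1.51 ± 0.55 (edgeR adjusted p = 0.165). Slc25a48, a choline carrier placed here as well, had 10, 49 and 0 reads in KO and 21, 5 and 16 reads in WT, with a log2 ratio of 0.40 ± 1.23.

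Adenine nucleotide exchange works with channels and kinases at the outer membrane and in the space between the membranes. The 6 genes listed as its partners also include Ppif, which is neither a channel nor a kinase. All 6 had negative log2 ratios (46.9% of all genes), with a median of -1.85 (0.06 over all genes). Of them, 5 were lower at an unadjusted p under 0.05 in edgeR (12.3% of all genes). Ppif, the regulator cyclophilin of the permeability pore, had 10.6, 14.5 and 8.94 CPM in KO, against 36.5, 111 and 57.4 CPM in the WT libraries (log2 ratio -2.59 ± 0.45, edgeR adjusted p = 0.0940). Ckmt1, the creatine kinase of the intermembrane space of epithelia and neurons, had 56.3, 332 and 5.13 CPM in KO, compared with 1156, 3629 and 1615 CPM in WT. Its 3 KO values spread in the order of the epithelial markers, KO 2 highest and KO 3 lowest. Among the 2918 genes wholly lower in KO, KO 2 was the highest KO library for 67.1% and KO 3 the lowest for 71.0%.

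All 5 tested carriers of di- and tricarboxylates were lower in KO without overlap (17.3% of all genes tested), each at an unadjusted p under 0.05 (12.3% of all genes), with a median log2 ratio of -1.79 (0.06 over all genes). These carriers move citrate, malate, succinate and oxoglutarate, linking the citric acid cycle to the cytosol. Summed per length they reached 61.6, 83.5 and 36.96 CPM per kb in KO 1, KO 2 and KO 3, against 122, 177 and 145 CPM per kb in the WT libraries. KO 3 was the lowest library for each of the 5, as it was for 71.0% of the 2918 genes wholly lower in KO.

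Slc25a10 (ENSMUSG00000025792, chr11:120491840-120499187, plus strand), the dicarboxylate carrier that takes malate or succinate against phosphate, had the smallest adjusted p of the family. It had 22.3, 29.97 and 8.39 CPM in KO, against 86.8, 136 and 101 CPM in the WT libraries. The log2 ratio was -2.42 ± 0.48 (edgeR adjusted p = 0.0940), and between -2.87 and -2.06 over the alternatives.

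Slc25a34 (ENSMUSG00000040740, chr4:141618824-141623821, minus strand) and Slc25a35 are related to the oxaloacetate carrier of yeast. Slc25a34 had 5.24, 16.1 and 1.01 CPM in KO, compared with 41.5, 48.4 and 36.0 CPM in WT. Its log2 ratio of -2.49 ± 0.84 was the lowest of the family (edgeR adjusted p = 0.149), with the wide error of a gene whose KO libraries ran from 13 to 282 reads; it was -3.78 without KO 2. Slc25a35 had 7.36, 5.32 and 2.72 CPM in KO, against 10.04, 27.8 and 15.7 CPM in the WT libraries (log2 ratio -1.79 ± 0.52, edgeR adjusted p = 0.121).

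Slc25a1, the citrate carrier that supplies cytosolic acetyl-CoA, had 62.3, 82.4 and 48.2 CPM in KO, compared with 97.5, 127 and 124 CPM in WT (log2 ratio -0.85 ± 0.28, edgeR adjusted p = 0.142). Slc25a11, the oxoglutarate carrier of the malate-aspartate shuttle, had 47.4, 62.0 and 23.2 CPM in KO, against 70.5, 112 and 85.9 CPM in the WT libraries (log2 ratio -1.02 ± 0.39, edgeR adjusted p = 0.177). Both gaps between the groups were narrow beside those of Slc25a10 and Slc25a34. The sixth member, Slc25a21, which carries oxodicarboxylates, had 2, 0 and 12 reads in KO and 2, 0 and 0 reads in WT and was not tested.

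Of 6 enzymes around citrate and lipogenesis, 5 had negative log2 ratios (46.9% of all genes). At an unadjusted p under 0.05 in edgeR, 4 were lower (12.3% of all genes). Citrate synthase, Cs, had 155, 267 and 113 CPM in KO, compared with 611, 821 and 555 CPM in WT (log2 ratio -1.89 ± 0.43). Me1, the cytosolic malic enzyme, was the exception, with 44.6, 54.8 and 46.4 CPM in KO, against 26.98, 16.1 and 23.7 CPM in the WT libraries (log2 ratio 1.13 ± 0.27, edgeR adjusted p = 0.1004).

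Among 7 tested amino acid carriers, 2 had positive and 5 negative log2 ratios, and the 2 aspartate-glutamate carriers of the malate-aspartate shuttle parted. Slc25a13 (ENSMUSG00000015112, chr6:6041218-6217173, minus strand), the form best known from liver, had 4.60, 8.64 and 4.66 CPM in KO, compared with 11.5, 26.9 and 21.6 CPM in WT. It was wholly lower, with a log2 ratio of -1.74 ± 0.44 (edgeR adjusted p = 0.104). Slc25a12, the form of muscle and brain, had 59.5, 48.3 and 50.1 CPM in KO and 35.6, 50.3 and 48.9 CPM in WT, overlapping, with a log2 ratio of 0.23 ± 0.24. Of the 4 shuttle enzymes, Mdh1 was lower, with 117, 151 and 129 CPM in KO, against 190, 346 and 239 CPM in the WT libraries (log2 ratio -0.97 ± 0.32, edgeR adjusted p = 0.147), and the other 3 overlapped.

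Slc25a29, a carrier of arginine, lysine and ornithine, had 10.03, 6.12 and 12.6 CPM in KO, compared with 3.74, 6.08 and 4.54 CPM in WT. KO 2 and WT 2 almost touched, and the log2 ratio was 1.00 ± 0.41 (edgeR adjusted p = 0.194). It lies on chromosome 12 with its start 162 bases from that of Slc25a47, on the opposite strand, and both had positive log2 ratios. Slc25a15, the ornithine carrier of the urea cycle, had 9.34, 12.2 and 15.7 CPM in KO and 10.6, 19.4 and 15.4 CPM in WT, overlapping (log2 ratio -0.29 ± 0.35). Its relative Slc25a2, on chromosome 18, had 57 reads in KO 3 and at most 1 in the other KO libraries, against 4, 0 and 1 reads in WT, and was not tested.

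The enzymes of ornithine and urea had positive log2 ratios for 8 of 8 genes (53.1% of all genes). At an unadjusted p under 0.05 in edgeR, 7 were higher (11.8% of all genes). Arg1, the cytosolic arginase, had 29.3, 32.5 and 52.6 CPM in KO, against 4.75, 0.253 and 2.06 CPM in the WT libraries (log2 ratio 4.01 ± 0.88, edgeR adjusted p = 0.0983). The mitochondrial arginase Arg2 had 14.2, 11.0 and 23.8 CPM in KO, compared with 6.30, 1.46 and 1.24 CPM in WT, and Ass1, argininosuccinate synthase, had a log2 ratio of 1.02 ± 0.27. Neutrophil markers, 4 genes, summed to 1097, 1179 and 6669 CPM in KO 1, KO 2 and KO 3 and 8.67 to 414 CPM in WT, and their part in these values was not tested.

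Slc25a44, a carrier of branched-chain amino acids, had 27.7, 20.6 and 12.6 CPM in KO, against 29.2, 30.5 and 34.1 CPM in the WT libraries, wholly lower by a narrow gap (log2 ratio -0.62 ± 0.33, edgeR adjusted p = 0.288). Slc25a22, the glutamate carrier, had 41.4, 105 and 26.03 CPM in KO and 82.8, 47.7 and 69.4 CPM in WT, with KO 2 the highest of all 6 libraries. Its log2 ratio was -0.21 ± 0.52, and 0.13 without KO 3. Slc25a38, which supplies glycine for heme synthesis, stayed between 17.7 and 23.3 CPM in KO and between 20.2 and 25.6 CPM in WT. Slc25a18, a second glutamate carrier, had 2, 3 and 12 reads in KO and 5, 0 and 4 in WT and was not tested.

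Slc25a20, the carnitine-acylcarnitine carrier through which long-chain fatty acids reach the matrix, split the KO libraries. It had 50.99, 308 and 33.3 CPM in KO 1, KO 2 and KO 3, against 448, 305 and 311 CPM in WT 1, WT 2 and WT 3. KO 2 lay within the WT range while KO 1 and KO 3 lay far below it, and the log2 ratio was -1.44 ± 0.82 (edgeR adjusted p = 0.320). Without KO 2 it was -3.12 (edgeR adjusted p = 0.0173), and without KO 3 it was -0.98. Absorptive colonocyte markers, 8 genes with 8 negative log2 ratios, summed to 493, 3609 and 72.0 CPM in the same KO libraries, against 6428 to 8960 CPM in WT. Slc25a45, placed with it, had 12.01, 14.5 and 2.95 CPM in KO and 15.1, 8.86 and 11.8 CPM in WT (log2 ratio -0.28 ± 0.57).

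All 9 genes of the carnitine shuttle and of beta-oxidation had negative log2 ratios (46.9% of all genes), with a median of -1.06. Of them, 8 were lower at an unadjusted p under 0.05 in edgeR (12.3% of all genes). Cpt1a, which makes the acylcarnitines that Slc25a20 carries, had 122, 99.7 and 56.9 CPM in KO, compared with 231, 314 and 321 CPM in WT (log2 ratio -1.63 ± 0.37, edgeR adjusted p = 0.0983). Unlike Slc25a20, Cpt1a in KO 2 was below every WT library, as were Crat (log2 ratio -1.06 ± 0.29) and Hadha (-1.15 ± 0.33).

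The iron carriers did not separate the groups. Slc25a37, the mitoferrin of red cell precursors, had 49.1, 29.5 and 94.0 CPM in KO and 47.7, 33.98 and 42.1 CPM in WT (log2 ratio 0.48 ± 0.42). Slc25a28, the mitoferrin of other tissues, had 32.3, 36.4 and 82.7 CPM in KO and 41.6, 36.5 and 29.9 CPM in WT (0.49 ± 0.40). For both genes KO 3 was well above the rest, and without it the log2 ratios were -0.10 and -0.09. KO 3 was also the library with the highest erythroid markers, and Alas2, the red cell enzyme of heme synthesis, had 3.66, 10.3 and 22.6 CPM in KO, against 2.97, 0.443 and 1.47 CPM in the WT libraries.

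Slc25a39, the carrier for glutathione import, had 85.0, 121 and 98.2 CPM in KO, compared with 110, 200 and 135 CPM in WT, overlapping (log2 ratio -0.55 ± 0.31). Its relative Slc25a40 was lower in abundance and wholly lower in KO, at 8.80, 8.92 and 6.06 CPM, against 11.9, 12.5 and 13.2 CPM in WT (log2 ratio -0.66 ± 0.30, edgeR adjusted p = 0.236). In the list of 9 iron and heme genes, 2 were higher (11.8% of all genes) and 2 lower (12.3%) at an unadjusted p under 0.05. Among them Iscu, the iron-sulfur scaffold, had 139, 170 and 204 CPM in KO, against 86.5, 58.0 and 56.9 CPM in the WT libraries (log2 ratio 1.35 ± 0.30). Of 6 glutathione genes, Gclc, the limiting enzyme of synthesis, was higher (log2 ratio 1.11 ± 0.30, edgeR adjusted p = 0.1115) and Gss, the next enzyme, lower (-1.80 ± 0.56, edgeR adjusted p = 0.1315).

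The 9 carriers of coenzymes and pyrimidine nucleotides stood closer together, with log2 ratios from -0.66 to 0.54. None reached an unadjusted p of 0.05 in edgeR (24.1% of all genes did). The pyrimidine nucleotide carriers Slc25a33 and Slc25a36 lay on opposite sides of 0. Slc25a33 had 12.3, 13.9 and 13.4 CPM in KO, compared with 10.8, 8.54 and 8.20 CPM in WT, wholly higher (log2 ratio 0.53 ± 0.28). Slc25a36 had 47.3, 38.04 and 48.03 CPM in KO, against 48.4, 109 and 53.1 CPM in the WT libraries, wholly lower only just, since KO 3 and WT 1 were nearly equal (log2 ratio -0.66 ± 0.36). Without WT 2 its log2 ratio was -0.23.

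Slc25a42, which carries coenzyme A, had 18.1, 8.12 and 6.76 CPM in KO and 5.41, 10.9 and 6.37 CPM in WT, with a log2 ratio of 0.54 ± 0.49 that was -0.01 without KO 1. Slc25a26, the S-adenosylmethionine carrier, had 3.61, 6.86 and 4.66 CPM in KO and 4.46, 9.30 and 6.49 CPM in WT (log2 ratio -0.42 ± 0.44). Slc25a51, the NAD carrier, had 107, 71.4 and 117 CPM in KO and 95.9, 96.3 and 91.7 CPM in WT, so the KO values lay on both sides of a tight WT group. Slc25a16, Slc25a17 and Slc25a32 had log2 ratios between 0.01 and 0.16.

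The 3 members most related to the uncoupling proteins all had positive log2 ratios. Slc25a27 had 8.75, 5.15 and 6.22 CPM in KO, compared with 2.62, 4.05 and 2.71 CPM in WT, wholly higher (log2 ratio 1.10 ± 0.41, edgeR adjusted p = 0.166). Slc25a30 had 28.5, 17.4 and 26.5 CPM in KO and 17.7, 13.04 and 16.5 CPM in WT, where KO 2 was just below WT 1 (log2 ratio 0.62 ± 0.29). Slc25a14 had 5.73, 9.44 and 9.25 CPM in KO and 5.47, 6.20 and 5.72 CPM in WT (0.49 ± 0.35). Slc25a27 and Slc25a14 are known for their levels in the nervous system, and 4 enteric neuron markers summed to 476, 159 and 415 CPM in KO, against 99.0 to 166 CPM in WT. Among the KO libraries, Slc25a27 was highest in KO 1 and lowest in KO 2, as the marker sum was. Slc25a14 was lowest in KO 1 and highest in KO 2. The part of these markers in the carriers' levels was not tested.

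Ucp2, the uncoupling protein of the same family that the symbol rule leaves out, had 369, 457 and 342 CPM in KO, against 464, 807 and 532 CPM in the WT libraries (log2 ratio -0.63 ± 0.37), wholly lower and so on the other side of 0 from the 3 above. Ucp1 and Ucp3 were not tested.

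Of the remaining members, Slc25a46, an outer membrane member linked to mitochondrial fusion and fission, had 37.01, 48.2 and 58.4 CPM in KO and 41.5, 45.2 and 44.6 CPM in WT (log2 ratio 0.13 ± 0.24). Slc25a53, with no known substrate, had 8.45, 5.95 and 5.28 CPM in KO, compared with 4.52, 3.16 and 3.72 CPM in WT, wholly higher (log2 ratio 0.79 ± 0.38, edgeR adjusted p = 0.253). Slc25a43 had 9, 6 and 52 reads in KO and 9, 2 and 2 reads in WT and was not tested. Both it and Slc25a2 had most of their reads in KO 3, the shallowest library.

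Ratios of paired members within a library do not depend on library scaling, and they were compared for 10 pairs of close relatives or carriers of related substrates. In 5 pairs the KO ratios lay wholly outside the WT ratios. The share over pairs of other genes was not computed, and 32.3% of all genes tested did not overlap when taken singly. Pairs that share Slc25a24 are not independent of each other. The log2 ratio of Slc25a4 to Slc25a5, per length, was -0.19, -0.45 and -0.12 in KO, against -2.44, -4.18 and -3.26 in WT. The difference of 3.04 was the largest of the 10, and it was 2.60 to 3.46 when each library was left out in turn.

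Slc25a12 to Slc25a13 stood at 2.74, 1.53 and 2.46 in KO, against 0.68, -0.05 and 0.22 in WT, a difference of 1.96. Slc25a24 to Slc25a23 stood at 0.93, 1.41 and 1.22 in KO, against 3.39, 3.88 and 3.44 in WT, a difference of -2.38, and Slc25a24 to Slc25a25 differed by -2.17. Slc25a33 to Slc25a36 differed by 1.10. Each of these 5 pairs gave an exact two-sided permutation p of 0.1, the smallest that 3 libraries against 3 allow, and 0.2 adjusted over the 10 pairs, so this design could not take them past 0.05.

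The other 5 pairs overlapped. Slc25a37 to Slc25a28 differed by -0.03 and Slc25a39 to Slc25a40 by 0.16, each with KO and WT values intermixed, and Slc25a14 to Slc25a30 by -0.14. Slc25a15 to Slc25a20 differed by 1.84, with a wide spread among the KO libraries. Slc25a22 to Slc25a18 differed by -1.47 with a wide spread in both groups, and Slc25a18 rested on 0 to 12 reads a library. That difference was -0.145 without KO 3, -0.617 without WT 2 and -0.997 with 2 reads added in place of 0.5. Coding identity within the pairs ran from 56.9% for Slc25a15 and Slc25a20 to 77.5% for Slc25a4 and Slc25a5.

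**Figure D4:**
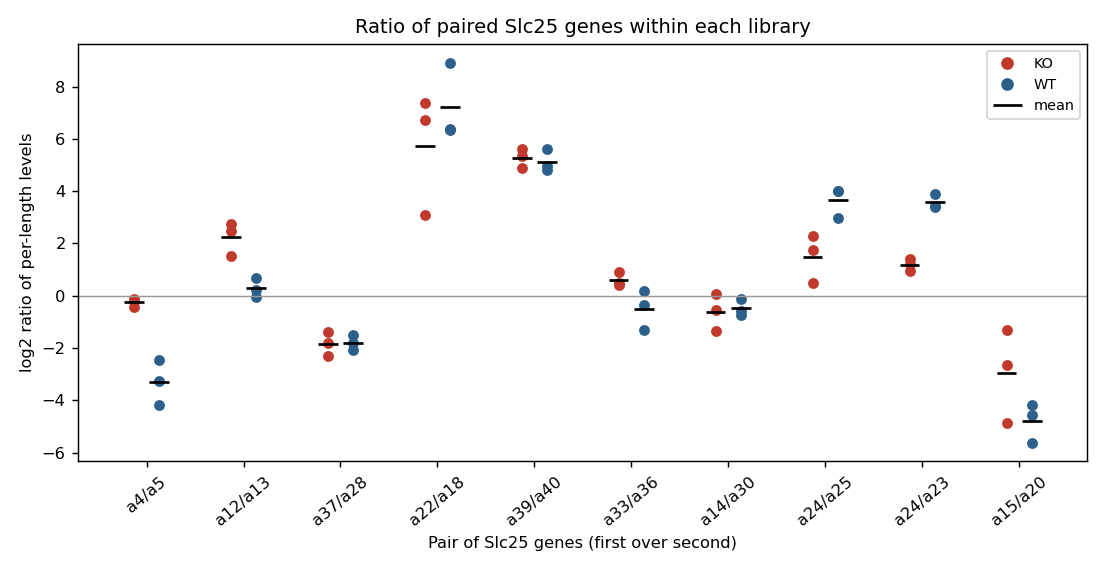
Log2 ratio of per-length levels within each library for 10 pairs of Slc25 genes (KO red, left of each pair; WT blue; bars are means; the prefix Slc25 is left off the axis). The KO and WT points separate in 5 pairs, most widely for Slc25a4 over Slc25a5, where KO lies at -0.45 to -0.12 and WT at -4.18 to -2.44.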

How the data were processed

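Poly-A RNA from distal colon was sequenced in 3 libraries labelled KO and 3 labelled WT. The authors deposited 1 table of whole-number read counts per gene with gene coordinates and lengths. HISAT2 2.0.5, StringTie 1.3.3b and featureCounts 1.5.0-p3 are named, per the submitters' processing notes, with the builds GRCm38 and mm10. Neither the annotation release, the strand setting nor the handling of reads that map to several genes is given in the sources used here. Of the members, 23 overlap another listed gene, 8 of them one with a mean of at least 10 reads (Slc25a3, a11, a18, a23, a25, a26, a36 and a53), so their counts may share reads with it.

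All genes were analysed together in R 4.3.3 with edgeR 4.0.16: filterByExpr (minimum count 10, minimum total 15), TMM scaling, the quasi-likelihood F test (robust, with no covariate), and Benjamini-Hochberg adjustment over the genes tested, at 0.05. Levels are CPM with TMM-scaled library sizes, divided by the deposited gene length in kb where genes are compared. Intervals are 95% and, like SEs, are from the fit. Ratios of paired genes used 0.5 added reads and an exact two-sided permutation test. The test was tried first on simulated counts with the same spread in both groups. The KO libraries here differ more among themselves than the WT libraries, so that trial cannot show how the test performs on them. DESeq2 1.42.0 and limma 3.58.1 served as alternatives, with other scalings, other filters, a replicate block and each library left out.

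Members, role groups and gene lists were chosen with earlier results of these data known. Values in every library are given for up to 4 members a role group with the smallest p, members of pairs, members with non-overlapping groups at an absolute log2 ratio of at least 1, and the 5 most abundant members, and for up to 3 genes a list; the rest are given by range or reads. Some genes of the family and of the lists are counted but not reported here by name. A planned description of protein features was left out, and the promoter of Slc25a4 is not shown. Replicate numbers were not treated as pairs in the main fit.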

Additional observations from a re-analysis of the deposited data

How the results depend on the processing

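With each count of members, the share of all genes tested is in brackets. With the low-count filter off, 1 member passed the adjusted threshold as lower in KO (0.528%); DESeq2 gave 6 (6.45%), limma-voom with quality weights 4 (6.04%), and the edgeR fits that left out 1 library 0 to 6, the 6 without KO 2 (7.75%). No member passed as higher in any setting run. Members higher at an unadjusted p under 0.05, 4 in edgeR (11.8%), were 7 under upper-quartile scaling (15.9%), with 7 lower (1691 of 16861 genes), 7 with quality weights (12.9%) and 2 with limma-voom (10.1%). DESeq2 gave 6 (12.3%), among them Slc25a2 and Slc25a43, which had most of their reads in KO 3. With 1 library left out of the edgeR fit, the higher members were 0 to 3: 0 without WT 3 (6.74%), 1 without WT 1 (9.45%), 2 without KO 1 (11.0%) and 3 without each of the others (5.58% to 13.9%). The 8 lower ones (12.3%) were 5 without WT 2 (7.71%) to 10 without KO 2 (17.4%). Upper-quartile scaling moved the median log2 ratio of members to 0.176 and of all genes to 0.206. With 1 library left out the median of members was -0.18 to -0.01.

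Of 495 ratios of named members under the alternatives, 471 kept their side of 0 and of the threshold, 17 came past it and 7 changed sign. The sign changes were Slc25a46 (-0.037 with quality weights, and -0.056 to 0.289 over left-out libraries), Slc25a28 (-0.086 to 0.725), Slc25a22 (-1.03 to 0.131), Slc25a37 (-0.101 to 0.756), Slc25a45 (-0.722 to 0.133) and Slc25a42 (-0.01 to 0.858). The pair differences changed sign for Slc25a37 to Slc25a28 (-0.256 to 0.199), Slc25a39 to Slc25a40 (-0.008 to 0.397) and Slc25a14 to Slc25a30 (-0.485 to 0.229). The cause was not tested. The log2 ratio of the family sum stayed between -1.11 (without KO 2) and -0.74 (not divided by length).

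Same-numbered libraries did not deviate together (r = -0.198, 0.084 and -0.084). Deviations were taken from group means of 3 libraries that differed widely in KO. These correlations therefore cannot show whether same-numbered libraries share more than a number. With the replicate block, 0 members passed the adjusted threshold, 1 was higher (9.06%) and 9 lower (11.7%) at an unadjusted p under 0.05, and the family log2 ratio was -0.92.

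The 7 members left untested in the main edgeR fit did not pass its low-count filter, Slc25a41 and Slc25a54 with 0 reads throughout. DESeq2, with its own filter, tested 44 members. Few reads widen the counting error of tested members such as Slc25a48, with 0 to 49 reads a library.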

Other observations

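Carriers reach the inner membrane through a dedicated import path. Its 12 genes had 8 positive (53.1% of all genes) and 4 negative (46.9%) log2 ratios. Of them, 2 were higher at an unadjusted p under 0.05 in edgeR (11.8% of all genes). Timm9, a small chaperone that escorts carriers across the intermembrane space, had 9.49, 13.8 and 15.9 CPM in KO, compared with 7.67, 6.58 and 7.02 CPM in WT (log2 ratio 0.88 ± 0.32, edgeR adjusted p = 0.164), and Tomm20, an import receptor, had 100.3, 188 and 199 CPM in KO and 107, 88.2 and 76.7 CPM in WT. The master regulators of mitochondrial gene expression gave 4 of 8 genes lower at an unadjusted p under 0.05 (12.3% of all genes). The other 4 had positive log2 ratios (53.1% of all genes), none of them at an unadjusted p under 0.05 in edgeR. Ppargc1a, the coactivator of mitochondrial biogenesis, had 4.05, 2.97 and 2.33 CPM in KO, against 11.9, 55.3 and 23.5 CPM in the WT libraries (log2 ratio -3.27 ± 0.61, edgeR adjusted p = 0.0940), and its partner receptor Esrrg had 1.43, 0.4004 and 0.466 CPM in KO, compared with 5.11, 11.3 and 5.31 CPM in WT. In both genes KO 2 was no closer to WT than KO 1, while Esrra, a related receptor picked here after its values were seen, had 43.1, 115 and 30.4 CPM in KO, against 211, 294 and 198 CPM in the WT libraries, with KO 2 the closest to WT, as for Slc25a20 and Slc25a34.

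Of 10 other inner membrane transport genes, 3 were lower at an unadjusted p under 0.05 (12.3% of all genes). Among them were Mcu, the pore of the calcium uniporter, and its regulator Micu2. Mcu had 28.3, 43.9 and 28.4 CPM in KO, against 75.2, 119 and 93.9 CPM in the WT libraries (log2 ratio -1.52 ± 0.30, edgeR adjusted p = 0.0940), and Micu2 had a log2 ratio of -0.76 ± 0.30. Of 6 one-carbon genes 5 had positive log2 ratios (53.1% of all genes), and 1 was higher at an unadjusted p under 0.05 (11.8%). It was Aldh1l2, the mitochondrial formyltetrahydrofolate dehydrogenase, with 8.89, 5.72 and 3.73 CPM in KO, compared with 1.90, 0.696 and 3.24 CPM in WT. None of the 4 genes of branched-chain amino acid breakdown reached that level in edgeR (24.1% of all genes did). The outer membrane relatives Mtch1 and Mtch2 overlapped between the groups, with log2 ratios of -0.11 ± 0.28 and -0.44 ± 0.27. Mitochondrially encoded genes took 3.94%, 4.88% and 12.8% of reads in KO 1, KO 2 and KO 3 and 3.53% to 4.14% in WT. KO 3, the highest of them, was the lowest library for each of the 5 tested di- and tricarboxylate carriers. It was also the lowest KO library for 71.0% of the 2918 genes wholly lower in KO, and a link to the mitochondrial reads was not tested.

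Markers of other cell types also varied. Fibroblast markers summed to 3098 to 5651 CPM in KO and 1058 to 1875 CPM in WT. All 4 had positive log2 ratios (53.1% of all genes), and 2 were wholly higher in KO (15.0% of all genes). In KO 3, Dcn gave 3515 of the 4486 CPM, while Col1a1 had 92.5 CPM, below the 148.5 to 307 CPM of WT. Macrophage markers summed to 128 to 543 CPM in KO and 266 to 593 CPM in WT. Adipocyte markers summed to 178 to 843 CPM in KO and 101 to 250 CPM in WT. The adipocyte sum was mostly 1 gene, Fabp4, with 159, 165 and 839 CPM in KO and 176, 76.2 and 173 CPM in WT. The other 3 adipocyte markers had negative log2 ratios, and the median of all 4 was -1.15.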
